A study of Mus musculus with 12 samples.

Results

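The respiratory chain and the ATP synthase form the machinery of oxidative phosphorylation in the inner mitochondrial membrane. Their nuclear-encoded genes were taken from the Affymetrix mouse arrays as all genes whose symbol starts with Nduf, Uqcr, Cox4 to Cox8 or Atp5, together with the Sdh subunit genes, Cyc1 and Cycs, each represented by its brightest single-symbol probe set. This gave 92 of 18193 genes, of which 90 were among the 14990 genes bright enough to be tested. Complex I contributed 42 genes, complex II 4, complex III 9, cytochrome c 1, complex IV 19 and the ATP synthase (complex V) 17. Of the 92 genes, 87 lay above the 30th percentile of all probe sets on every one of the 12 arrays. Cox6b2 did so on 10 arrays, Cox7c on 9 and Cox7a1 on 4, while Ndufb4 did so on 2 and Cox7b2 on 0, so that these last 2 genes were not tested.

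Complexes I and II take electrons from NADH and from succinate, complex III passes them to the small carrier cytochrome c, and complex IV hands them to oxygen. Complexes I, III and IV pump protons, and complex V lets the protons flow back through a rotating ring of c subunits to make ATP. Acinar cells spend much ATP on the synthesis and export of digestive enzymes and are rich in mitochondria. Several complex IV subunits, and the c subunit of the ATP synthase, are encoded by more than 1 gene, and some of the alternative genes are best known from muscle, lung or testis.

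The series compared 3 groups of mouse pancreatic epithelium with 4 arrays each, labelled biological replicas A to D. Acini were freshly isolated exocrine acini. Ducts were organoids grown from native duct fragments. The yDucts were organoids that arose from acini of mice carrying R26-rtTA and tetO-YAP S127A, in which doxycycline had switched on YAP with the S127A change for a limited time and had then been withdrawn. In this mouse the transactivator is driven from the Rosa26 locus and is not restricted to acinar cells. Both organoid groups grew in Matrigel under the same medium, with B27, N-acetylcysteine, gastrin, EGF, Noggin, FGF10, nicotinamide and R-Spondin1, whereas the Acini had not been cultured. Acini were prepared from young adult mice. The sources used here give neither the genotype of the Acini and Ducts arrays nor from which animals or cultures each array came, while the study calls each profile a biological sample of its own. Each p-value therefore rests on the spread among these samples.

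Values are deposited log2 RMA expression values, a group's level is its mean ± SD (n = 4), and a difference is given in log2 units with the standard error (SE) of a limma model over all 12 arrays. Each adjusted p is from this model with Benjamini-Hochberg adjustment over the 14990 genes, and calls were made where this p was under 0.05. The acinar label was borne out by Cpa1 and other enzyme genes, whose summed linear level over 7 genes ran from 115000 to 117000 on the Acini arrays and from 90.5 to 209 on the organoid arrays. Duct markers summed to 1170 to 1820 in Acini, 15000 to 26300 in Ducts and 10600 to 15600 in yDucts over 6 genes. Of these, 4 were called higher in each organoid group. Sox9 was not called (0.56 in Ducts and 0.18 in yDucts, limma, adjusted p = 0.167 and 0.658). Neither was Cftr (0.19 and 1.01, adjusted p = 0.825 and 0.233). The Acini arrays also carried markers of other cells. Stromal markers summed to 3470 to 6480 there against 69.2 to 84.0 on organoid arrays (7 genes), endothelial markers to 743 to 1220 against 57.5 to 70.6 (5 genes), immune markers to 547 to 692 against 72.5 to 167 (5 genes), endocrine markers to 3270 to 5140 against 57.3 to 69.6 (4 genes) muscle markers to 239 to 335 against 102 to 122 (6 genes) and blood and fat markers to 1340 to 2140 against 17.1 to 20.5 (3 genes), while Col3a1, Lum, Pdgfra, Pecam1, Cdh5, Emcn, Ptprc and C1qa lay at background in both organoid groups. Cd68, 1 of the 5 immune markers, went the other way, with 3.61 ± 0.33 in Acini, 5.02 ± 1.13 in Ducts and 4.88 ± 0.40 in yDucts. It was called higher in both organoid groups (limma, adjusted p = 0.011 and 0.0192). The blood and fat sum in Acini came from Fabp4 (10.67 ± 0.29) alone. Hba-a1 (3.35 ± 0.27) and Adipoq (2.98 ± 0.19) lay below the 30th percentile on every Acini array. A smaller share of a cell type and less RNA per cell cannot be told apart in such bulk samples.

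The low end of the Acini arrays also differed. Their 30th percentile was 3.64 to 3.79, against 3.18 to 3.23 on the organoid arrays, and their interquartile range 2.51 to 2.81 against 3.85 to 3.97. For the Gapdh control probe sets, the 3′ value minus the 5′ value was 1.54 ± 0.29 in Acini, -0.04 ± 0.04 in Ducts and -0.15 ± 0.02 in yDucts. The part of these differences in the values below was not tested. Because the groups differ in range, each comparison with Acini was repeated after 3 other scalings of the arrays (centring on the median, quantile normalization and cyclic loess).

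Expression of these genes is known to be set in part by the nuclear factors NRF1, GABPA, the ERR receptors and YY1. The promoters of 6 genes are shown because the results on partner genes turn on them: the 3 genes for the identical mature c subunit, a complex II pair that diverged, and cytochrome c. Each stretch runs from 190 bases before to 30 bases after the annotated start (RefSeq, GRCm38.p6), 5′ to 3′ in the direction of transcription, and capitals mark the letters of a searched motif on either strand.
Atp5g1, chr11:96075602-96075821, minus strand: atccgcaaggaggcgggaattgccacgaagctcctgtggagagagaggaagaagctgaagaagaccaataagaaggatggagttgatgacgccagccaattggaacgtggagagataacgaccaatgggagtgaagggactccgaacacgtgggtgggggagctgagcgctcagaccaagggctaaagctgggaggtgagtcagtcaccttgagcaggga
Atp5g2, chr15:102671018-102671237, minus strand: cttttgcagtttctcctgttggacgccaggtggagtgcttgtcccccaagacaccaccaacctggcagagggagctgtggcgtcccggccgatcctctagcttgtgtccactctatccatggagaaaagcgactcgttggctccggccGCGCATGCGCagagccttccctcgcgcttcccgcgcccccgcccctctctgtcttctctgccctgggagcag
Atp5g3, chr2:73911297-73911516, minus strand: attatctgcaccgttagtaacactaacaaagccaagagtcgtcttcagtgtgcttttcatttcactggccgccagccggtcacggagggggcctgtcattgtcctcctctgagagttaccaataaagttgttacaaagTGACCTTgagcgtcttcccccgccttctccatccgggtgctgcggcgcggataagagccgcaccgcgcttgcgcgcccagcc
Sdhb, chr4:140961081-140961300, plus strand: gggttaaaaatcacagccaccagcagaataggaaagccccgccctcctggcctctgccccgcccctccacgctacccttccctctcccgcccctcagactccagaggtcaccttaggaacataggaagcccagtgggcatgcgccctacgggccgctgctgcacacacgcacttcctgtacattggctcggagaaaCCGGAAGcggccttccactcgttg
Sdhd, chr9:50603820-50604039, minus strand: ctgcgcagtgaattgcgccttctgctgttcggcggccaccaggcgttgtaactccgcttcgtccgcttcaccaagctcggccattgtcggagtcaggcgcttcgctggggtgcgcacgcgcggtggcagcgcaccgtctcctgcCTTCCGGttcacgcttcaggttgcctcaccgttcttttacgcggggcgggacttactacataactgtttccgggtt
Cycs, chr6:50566540-50566759, minus strand: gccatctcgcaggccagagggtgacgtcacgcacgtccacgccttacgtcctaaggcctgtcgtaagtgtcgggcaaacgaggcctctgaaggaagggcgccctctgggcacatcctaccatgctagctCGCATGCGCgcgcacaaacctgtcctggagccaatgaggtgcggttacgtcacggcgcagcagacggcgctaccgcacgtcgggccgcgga

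In these stretches Atp5g2 and Cycs held the NRF1 letters GCGCATGCG, those of Atp5g2 on both strands, Sdhb and Sdhd held the GABPA letters CCGGAAG, Atp5g3 held the ERR letters AAGGTCA, and the Atp5g1 stretch held none of the motifs. Over 75 genes of the set with a RefSeq promoter of 250 bases before to 50 after the start (80 promoters), the NRF1 letters stood in 12.5% of promoters against 1.75% of all 32851 promoters. The GABPA letters stood in 23.8% against 8.86%, the ERR letters in 10% against 4.72% and the YY1 letters AAGATGG in 13.8% against 6.34%. Both strands were searched, and matches to different motifs overlapped in 0 of the 80 promoters. A match describes the letters only.

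The first question was how these genes differed between native ductal organoids and acini. On the deposited values 43 of the 90 tested genes were higher in Ducts, 18 were lower and 29 were not called. Of all 14990 genes, 42.7% were called higher and 33.1% lower in Ducts, so that the share of respiratory chain genes called higher was near the background and the share called lower was below it. Their median difference was 0.37, against 0.20 for all genes tested. This direction was not stable to scaling. With quantile normalization 13 were higher and 41 lower (median -0.32), with cyclic loess 11 and 56 (-0.60), and with centring on the median 52 and 13 (0.58), while the median of all genes moved from 0.20 to -0.15, -0.17 and 0.42. Under these 3 scalings 28.4%, 25.8% and 47.0% of all genes were called higher and 36.1%, 36.6% and 26.8% lower. No direction is therefore given for the set as a whole, and the genes that kept their call under all 3 other scalings are set out by complex. In Ducts these were 10 of the 43 genes called higher (Atp5b, Cox7c, Ndufa7, Ndufab1, Ndufaf2, Ndufaf6, Ndufb1, Ndufs1, Sdhc and Sdhd) and 12 of the 18 called lower (Atp5g1, Atp5k, Cox4i2, Cox6a2, Cox8c, Ndufa1, Ndufa4l2, Ndufa5, Ndufb7, Ndufb8, Ndufs7 and Ndufv3). Cox7c was tested only because of its organoid arrays. The share of all called genes that kept their call was not counted, so it is not known whether these genes were more or less stable than others. Of the higher calls, 26 changed sign under at least 1 scaling, and of the lower calls 0 did. Quantile normalization and cyclic loess moved the median of the set down, and centring moved it up by less. The smallest lower call was -0.28 (Ndufb11), so the lower calls had little room to turn. The contrast is therefore no sign of greater stability, and sign changes were not counted over all genes.

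**Figure D1:**
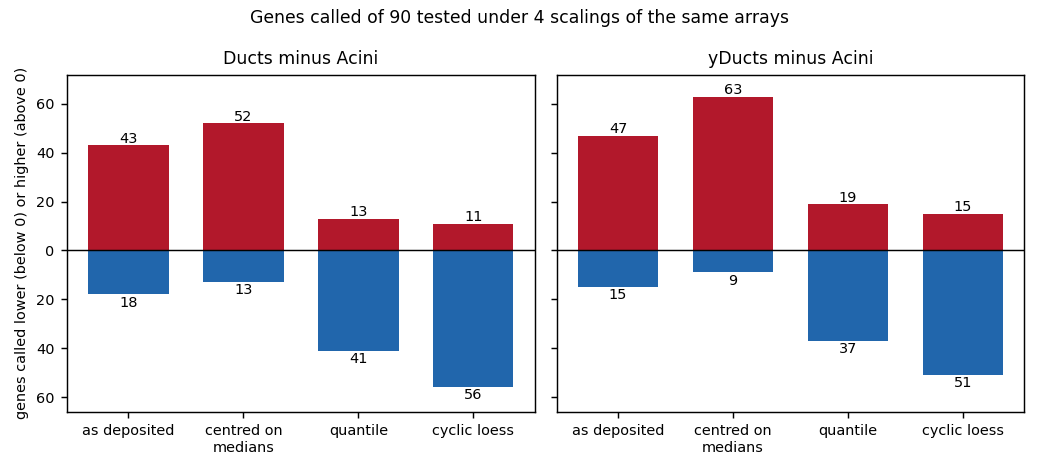
Number of the 90 tested genes called higher (red, above 0) or lower (blue, below 0) at an adjusted p under 0.05, for Ducts (left) and yDucts (right) against Acini, under 4 scalings of the same 12 arrays. Higher calls outnumber lower ones on deposited and centred values (43 against 18 and 52 against 13 for Ducts) and are outnumbered by them after quantile normalization and cyclic loess (13 against 41 and 11 against 56).

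For the yDucts against Acini the pattern was similar, although both comparisons share the Acini arrays. In yDucts 47 of the 90 genes were higher, 15 lower and 28 not called, against 43.6% of all genes called higher and 32.6% called lower, with a median difference of 0.50 against 0.24 for all genes. After quantile normalization 19 were higher and 37 lower (median -0.15), after cyclic loess 15 and 51 (-0.48), and after centring 63 and 9 (0.72). The medians of all genes were then -0.16, -0.15 and 0.46, so that after quantile normalization the set lay at the background, with 29.2%, 27.1% and 48.3% of all genes called higher and 35.9%, 36.0% and 26.3% lower. The calls kept throughout were 14 of the 47 higher ones, namely those of Atp5a1, Atp5b, Cox7c, Ndufa7, Ndufab1, Ndufaf1, Ndufaf2, Ndufaf6, Ndufaf7, Ndufb1, Ndufs1, Sdha, Sdhc and Sdhd. Of the 15 lower calls 8 were kept (Atp5g1, Cox4i2, Cox6a2, Cox8c, Ndufa4l2, Ndufb7, Ndufs7 and Ndufv3). Over all called genes the share kept was again not counted. The values of the 4 arrays did not overlap between the groups for 56 of the 61 genes called in Ducts and 61 of the 62 called in yDucts (91.8% and 98.4%), against 84.6% and 91.3% of all genes called. By rank among all probe sets of an array, the median percentile over 83 of these genes (all but the alternative isoforms) was 97.8 to 98.3 in Acini, 97.0 to 97.5 in Ducts and 97.1 to 97.6 in yDucts. Single genes lay far lower, and the median percentile of the 8 complex I assembly factors was 61.0 to 76.4, 77.7 to 79.2 and 79.8 to 80.4.

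**Figure D2:**
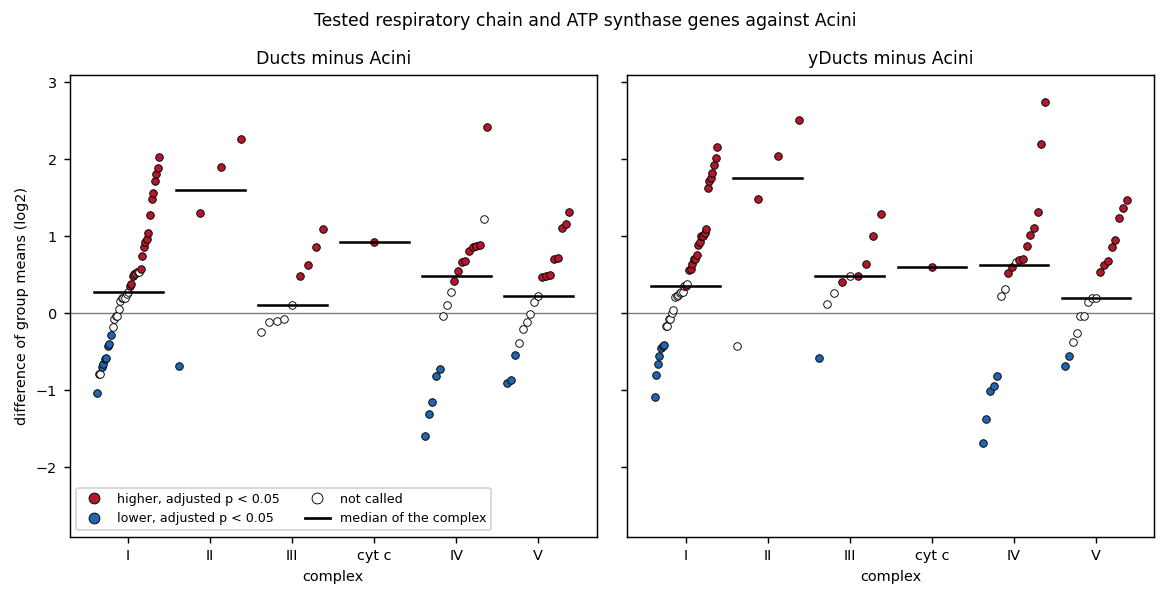
Difference of the group means (log2, deposited values) of each tested gene against Acini, ordered by size within each complex, for Ducts (left) and yDucts (right). Red and blue points passed an adjusted p of 0.05, white points did not, and black bars are the median of each complex. Complex II holds the highest median (1.60 and 1.76), and complexes I, IV and V hold genes called in both directions in both panels, complex II only in Ducts and complex III only in yDucts.

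Complex II, succinate dehydrogenase, is the only complex built of nuclear-encoded subunits alone, and it also catalyses a step of the citric acid cycle. Sdha, Sdhc and Sdhd were higher in both organoid groups, and Sdhb was not. Sdhd, one of the 2 membrane anchors, read 6.81, 7.95, 8.06 and 7.58 on Acini A to D, 9.86, 10.28, 9.71 and 9.60 on Ducts A to D, and 10.07, 10.09, 10.07 and 10.21 on yDucts A to D. All organoid arrays lay above all Acini arrays. The difference was 2.26 ± 0.25 in Ducts (4.80-fold, adjusted p = 3.28e-06) and 2.51 ± 0.25 in yDucts (5.70-fold, adjusted p = 1.27e-06), and it was 1.39 and 1.64 after quantile normalization and 1.14 and 1.39 after cyclic loess.

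Sdhc, the other membrane anchor, read 7.05, 7.59, 7.67 and 7.85 in Acini, 9.52, 9.78, 9.27 and 9.21 in Ducts, and 9.40, 9.60, 9.68 and 9.62 in yDucts. This was 1.90 ± 0.19 higher in Ducts (3.75-fold, adjusted p = 1.43e-06) and 2.04 ± 0.19 in yDucts (4.10-fold, adjusted p = 7.81e-07). Another Sdhc probe set did not share this rise, with means of 8.78 in Acini, 8.48 in Ducts and 8.59 in yDucts. Sdha, the flavoprotein that oxidises succinate, read 9.14, 9.30, 9.54 and 8.76 in Acini, 10.55, 10.58, 10.40 and 10.42 in Ducts, and 10.72, 10.61, 10.61 and 10.70 in yDucts. Its groups did not overlap (1.30 ± 0.16 in Ducts, adjusted p = 9.65e-06, and 1.48 ± 0.16 in yDucts, adjusted p = 3.15e-06), but after cyclic loess the Ducts difference was 0.21 (adjusted p = 0.22).

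Sdhb, the iron-sulphur subunit that relays electrons from Sdha to the anchors, went the other way. It read 10.16, 10.40, 10.54 and 10.45 in Acini, 10.22, 10.10, 9.31 and 9.18 in Ducts, and 9.98, 10.05, 9.94 and 9.91 in yDucts. Ducts C and D lay well below Ducts A and B, and Ducts A overlapped with the Acini. The difference was -0.68 ± 0.22 in Ducts (adjusted p = 0.0128), -1.14 without Ducts A and B and -0.23 (adjusted p = 0.237) without Ducts C and D. In yDucts it was -0.42 ± 0.22 (adjusted p = 0.101), although no yDucts array reached the lowest Acini array, and it was -1.16 after quantile normalization (adjusted p = 0.000589). As a difference within each array, Sdha minus Sdhb changed by 1.99 ± 0.28 (SE) in Ducts and 1.89 ± 0.17 in yDucts, Sdhc minus Sdhb by 2.59 ± 0.20 and 2.45 ± 0.13, and Sdhd minus Sdhb by 2.95 ± 0.28 and 2.93 ± 0.22. All 3 differences separated the organoid arrays from the Acini arrays without overlap on deposited values, after quantile normalization and after cyclic loess, where Sdhd minus Sdhb changed by 2.92 and 2.90. Much of a scaling cancels in a difference within an array, so the agreement across scalings is weak support. These pairs were formed with the values known and were not tested. They rest on the brightest probe sets, and other probe sets rose less. The other Sdhc probe set differed by -0.30 in Ducts and -0.20 in yDucts, and that of Sdhd by 1.10 and 1.18. For Sdha, other probe sets differed by 0.55 and 0.98 and by 1.02 and 0.84, and a dim one below the filter by -0.53 and -0.71.

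**Figure D3:**
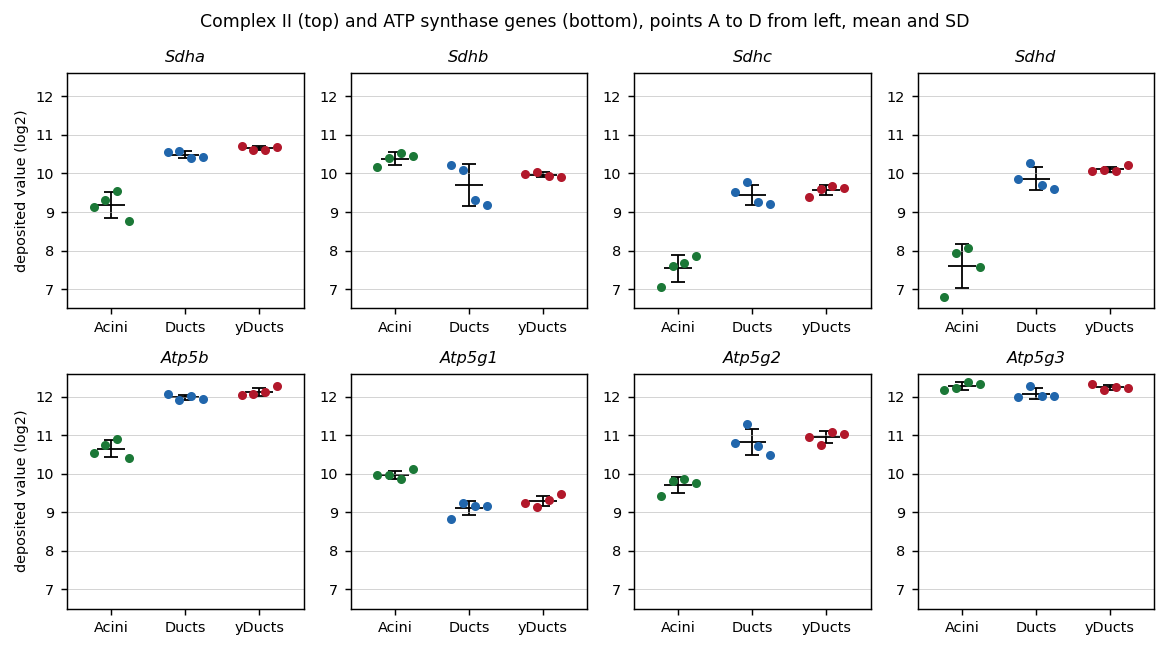
Deposited log2 values of the 4 complex II genes (top) and of Atp5b and the 3 c-subunit genes of the ATP synthase (bottom) on each array. Points are arrays A to D from left to right within Acini (green), Ducts (blue) and yDucts (red), and black marks are the mean and SD of 4 arrays. Sdha, Sdhc, Sdhd, Atp5b and Atp5g2 sit higher on every organoid array than on any Acini array, Atp5g1 sits lower on every one, and Atp5g3 stays between 11.98 and 12.38 throughout.

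In the ATP synthase, 3 of the 5 genes of the F1 head, which holds the catalytic sites, were higher and 0 lower in each organoid group, and of the 3 c ring genes 1 was higher and 1 lower. Of the 17 complex V genes, 8 were higher, 3 lower and 6 not called in Ducts, and 8, 2 and 7 in yDucts. Among all genes tested, 42.7% were higher and 33.1% lower in Ducts, and 43.6% and 32.6% in yDucts. Atp5b, the catalytic beta subunit, read 10.55, 10.75, 10.90 and 10.42 in Acini, 12.06, 11.91, 12.01 and 11.94 in Ducts, and 12.04, 12.06, 12.12 and 12.28 in yDucts. It was 1.32 ± 0.14 higher in Ducts (adjusted p = 2.15e-06) and 1.47 ± 0.14 in yDucts (adjusted p = 8.6e-07), and kept this call under all 3 other scalings. Atp5a1, its alpha partner in the head, was 1.16 ± 0.14 higher in Ducts (10.60 ± 0.26 to 11.75 ± 0.03, adjusted p = 1.11e-05) and 1.37 ± 0.14 in yDucts (11.96 ± 0.09, adjusted p = 2.44e-06). Its Ducts difference was 0.14 (adjusted p = 0.344) after cyclic loess. Atp5d, the delta subunit of the central stalk, read 11.62 ± 0.17, 11.61 ± 0.12 and 11.58 ± 0.14 in Acini, Ducts and yDucts and was not called. Atp5c1, the gamma subunit, was higher on deposited values (0.70 ± 0.13 and 0.68 ± 0.13, adjusted p = 0.000284 and 0.000315) but lower after cyclic loess (-0.33 in both, adjusted p = 0.0364 and 0.0349). Atp5e, the epsilon subunit, differed by -0.39 ± 0.18 and -0.38 ± 0.18 (adjusted p = 0.0664 and 0.0742), and was called lower after quantile normalization (-1.01 in both, adjusted p = 0.000362 and 0.000331).

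The c subunit has 3 genes, which encode the same mature protein behind different import signals. Atp5g1 read 9.96, 9.96, 9.86 and 10.12 in Acini, 8.84, 9.25, 9.16 and 9.17 in Ducts, and 9.24, 9.15, 9.31 and 9.47 in yDucts. It fell by 0.87 ± 0.14 in Ducts (adjusted p = 8.58e-05) and by 0.68 ± 0.14 in yDucts (adjusted p = 0.000598), and this call held under all scalings. Atp5g2 read 9.42, 9.82, 9.87 and 9.75 in Acini, 10.80, 11.28, 10.73 and 10.48 in Ducts, and 10.96, 10.74, 11.09 and 11.02 in yDucts. Every organoid array again lay outside the range of the Acini arrays, now above it. The Atp5g2 difference was 1.11 ± 0.18 in Ducts (adjusted p = 0.000106) and 1.24 ± 0.18 in yDucts (adjusted p = 4.06e-05), but 0.04 and 0.17 after cyclic loess (adjusted p = 0.872 and 0.417). Atp5g3 was not called in either comparison (12.28 ± 0.10, 12.08 ± 0.14 and 12.24 ± 0.06) on deposited values, but was called lower after quantile normalization (-0.51 and -0.32, adjusted p = 0.00302 and 0.0375) and cyclic loess (-1.16 and -0.99, adjusted p = 4.04e-06 and 1.67e-05).

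Within arrays, Atp5g2 minus Atp5g1 rose by 1.98 ± 0.21 in Ducts and 1.92 ± 0.13 in yDucts, with 2.04 and 1.94 after quantile normalization and 2.02 and 1.97 after cyclic loess. Atp5g3 minus Atp5g1 rose by 0.67 ± 0.10 and 0.65 ± 0.10. Neither pair overlapped between organoids and Acini under these scalings. A scaling largely cancels in a difference between genes of similar level on the same array, so this agreement is no further support. Of the membrane subunits, Atp5k, which lies in the dimer interface, was lower by 0.90 ± 0.18 in Ducts (adjusted p = 0.000505) and 0.55 ± 0.18 in yDucts (adjusted p = 0.0127). The stalk gene Atp5o was lower in Ducts (-0.54 ± 0.15, adjusted p = 0.00643) and not called in yDucts (-0.26 ± 0.15, adjusted p = 0.136). Without Ducts C and D the first was -0.36 (adjusted p = 0.0936), and without Acini A the second was -0.36 (adjusted p = 0.0343).

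Complex IV, cytochrome c oxidase, divided in part by isoform on deposited values. Of its 10 widely expressed subunit genes, 8 were higher and 0 lower in each organoid group on deposited values (medians 0.68 in Ducts and 0.79 in yDucts). Of the 7 tested alternative isoforms, 5 were lower in each organoid group (Cox4i2, Cox6a2, Cox8b, Cox8c and Ndufa4l2), 0 were higher in Ducts and 1 was higher in yDucts. For all genes tested the shares were 42.7% higher and 33.1% lower in Ducts, and 43.6% and 32.6% in yDucts. The higher calls of Cox4i1, Cox6a1 and Cox8a, as of Cox5a, Cox5b and the supercomplex factor Cox7a2l, changed sign after at least 1 other scaling. Among the lower calls, those of Cox4i2, Cox6a2, Cox8c and Ndufa4l2 were kept under all scalings in both comparisons. Quantile normalization and cyclic loess moved the median of the set down, though not every gene. The Ducts difference of Cox4i2 was -1.60 as deposited, -1.73 after quantile normalization and -1.22 after cyclic loess. For a gene that these scalings moved down, a kept lower call is weak support.

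Cox4i2, the isoform of subunit 4 known from lung and induced by low oxygen, read 4.37, 5.83, 5.46 and 6.45 in Acini, 3.83, 3.85, 3.89 and 4.14 in Ducts, and 3.97, 3.94, 3.67 and 3.78 in yDucts. The Acini arrays spread over 2 log2 units, and Acini A lay close to the organoids. It was 1.60 ± 0.33 lower in Ducts (adjusted p = 0.000655) and 1.69 ± 0.33 lower in yDucts (adjusted p = 0.000428). Its common counterpart Cox4i1 rose from 11.53 ± 0.19 to 12.21 ± 0.11 in Ducts (0.68 ± 0.13, adjusted p = 0.000464) and 12.23 ± 0.07 in yDucts (0.70 ± 0.13, adjusted p = 0.000356), but read -0.30 and -0.27 against Acini after cyclic loess. Within arrays, Cox4i1 minus Cox4i2 increased by 2.28 ± 0.35 and 2.39 ± 0.36 without overlap, and by 0.92 and 1.02 with overlap after cyclic loess.

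Cox6a2, the heart and muscle isoform of subunit 6a, read 5.54, 5.82, 6.03 and 6.0 in Acini, 5.02, 4.85, 5.01 and 5.28 in Ducts, and 4.94, 4.89, 4.83 and 4.96 in yDucts. It fell by 0.81 ± 0.15 (adjusted p = 0.000275) and 0.94 ± 0.15 (adjusted p = 7.55e-05), while Cox6a1 read 0.55 ± 0.14 and 0.69 ± 0.14 higher (adjusted p = 0.00251 and 0.000479). Cox8b, the muscle isoform of subunit 8, went from 4.61 ± 0.34 to 3.88 ± 0.05 in Ducts and 3.78 ± 0.22 in yDucts, low values that leave little room above the 30th percentile. Within arrays, Cox6a1 minus Cox6a2 rose by 1.36 ± 0.23 and 1.63 ± 0.20, and after cyclic loess by 0.62 with overlap and 0.90 without. Cox8a minus Cox8b rose by 1.61 ± 0.27 and 1.84 ± 0.29, but by 0.04 and 0.26 with overlap after cyclic loess. Cox8c, the isoform known from testis, fell by 1.31 ± 0.14 in Ducts (8.31 ± 0.21 to 7.0 ± 0.18, adjusted p = 3.54e-06) and by 1.38 ± 0.14 in yDucts (6.93 ± 0.05, adjusted p = 2.13e-06). The muscle and stromal markers given above were also lower in the organoids, and their part in these differences was not tested.

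Ndufa4, first described with complex I and now placed in complex IV, and Ndufa4l2, its hypoxia-inducible relative, also moved apart. Ndufa4l2 read 6.62, 6.26, 6.5 and 6.26 in Acini, 5.38, 5.30, 5.35 and 5.02 in Ducts, and 5.35, 5.39, 5.34 and 5.52 in yDucts, a fall of 1.15 ± 0.14 (adjusted p = 8.77e-06) and of 1.01 ± 0.14 (adjusted p = 2.61e-05). Ndufa4 read 9.44, 10.46, 10.34 and 10.33 in Acini, 11.20, 11.04, 10.56 and 10.45 in Ducts, and 11.47, 11.43, 11.46 and 11.47 in yDucts. Ducts D overlapped with the Acini, while the yDucts arrays lay within 0.04 of each other above both other groups. The Ndufa4 differences were 0.67 ± 0.23 (adjusted p = 0.0184) and 1.32 ± 0.23 (adjusted p = 0.000202), and the first of these was 0.36 (adjusted p = 0.21) without Ducts A and B, 0.54 (adjusted p = 0.0593) without Ducts A alone and 0.44 (adjusted p = 0.0437) without Acini A. Within arrays, Ndufa4 minus Ndufa4l2 rose by 1.82 ± 0.34 and 2.33 ± 0.32, and after cyclic loess by 1.20 and 1.71 without overlap.

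**Figure D4:**
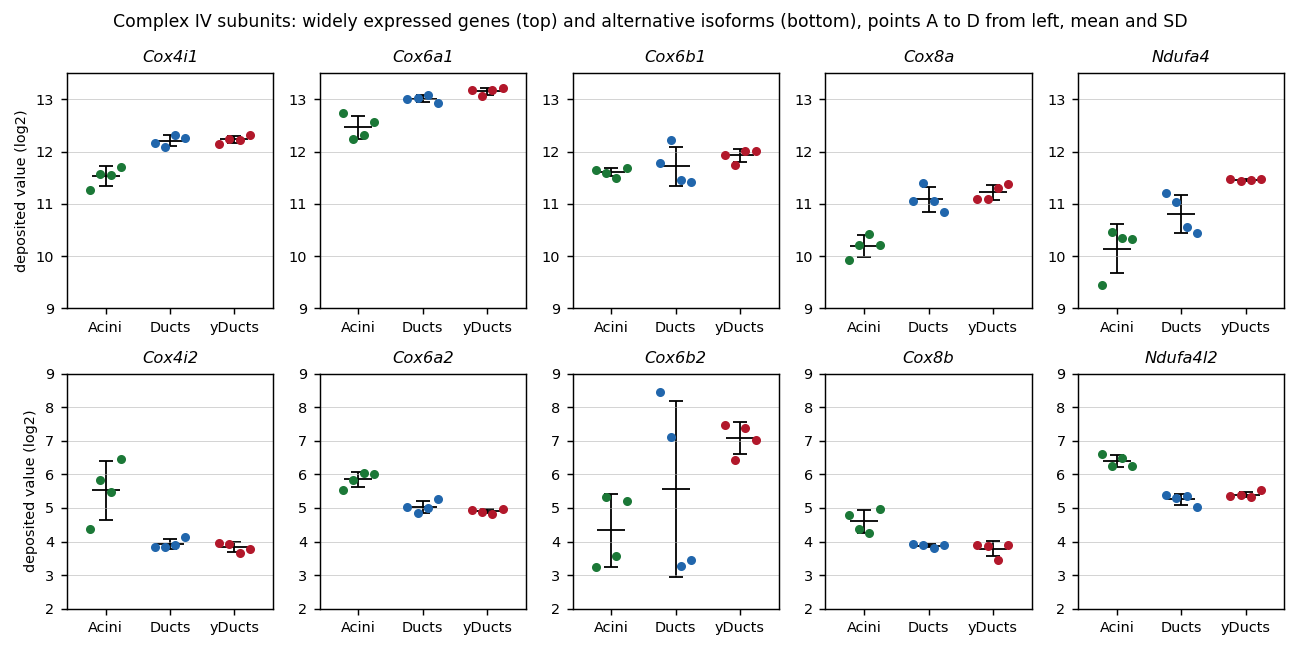
Deposited log2 values of 5 widely expressed complex IV genes (top) and of the alternative isoform of each (bottom) on arrays A to D, from left to right, of Acini (green), Ducts (blue) and yDucts (red), with the mean and SD of 4 arrays in black. The bottom row runs lower on the organoid arrays than in Acini for Cox4i2, Cox6a2, Cox8b and Ndufa4l2, while Cox6b2 reads 8.46 and 7.10 on Ducts A and B and 3.26 and 3.45 on Ducts C and D.

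Cox6b2, the testis isoform of subunit 6b, was the exception among the alternative genes. It read 3.23, 5.34, 3.58 and 5.20 in Acini, 8.46, 7.10, 3.26 and 3.45 in Ducts, and 7.48, 6.44, 7.37 and 7.03 in yDucts. It was high on every yDucts array and on Ducts A and B, and near background on Ducts C and D and on Acini A and C. The yDucts lay 2.74 ± 0.99 above Acini (adjusted p = 0.023), whereas the Ducts difference (1.23 ± 0.99, adjusted p = 0.272) was -0.98 without Ducts A and B and 3.44 without Ducts C and D. The yDucts call was lost without Acini A (2.37, adjusted p = 0.0706), Acini C (2.49, adjusted p = 0.0619) or yDucts A (2.61, adjusted p = 0.0515). Cox7a1, the muscle isoform of subunit 7a, stayed near background (2.68 ± 0.34, 2.96 ± 0.67 and 3.34 ± 0.25) and was not called on deposited values. Its yDucts difference was called without Acini A (0.77, adjusted p = 0.0444), after quantile normalization (1.05, adjusted p = 0.00706) and after cyclic loess (1.22, adjusted p = 0.00267), and its Ducts difference without Ducts C and D (0.82, adjusted p = 0.0144) and after cyclic loess (0.81, adjusted p = 0.028). Within arrays these 2 sets went against the other isoform pairs. Cox6b1 minus Cox6b2 changed by -1.12 ± 1.29 in Ducts, with overlap, and by -2.42 ± 0.56 in yDucts, without. Cox7a2 minus Cox7a1 changed by -0.31 ± 0.32 and -0.44 ± 0.24 with overlap, and by -1.84 and -1.98 without overlap after cyclic loess. Cox7c, a small ubiquitous subunit, lay at background in Acini on this probe set and was at least 4.52-fold higher in Ducts (adjusted p = 3.78e-07) and at least 3.89-fold higher in yDucts (adjusted p = 8.46e-07). On its other probe set, also at background in Acini, it was at least 1.39-fold and at least 1.33-fold higher (adjusted p = 0.000152 and 0.000228). On the probe set used, Cox7c lay above the 30th percentile on 1 Acini array and on 4 arrays of each organoid group. It was therefore tested only because of the organoid arrays, and its p-values are no separate support for the rise. Cox6b2 (2 Acini arrays) and Cox7a1 (0) likewise reached the filter only with the organoid arrays.

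Complex I, the entry point for NADH, is the largest complex, and its genes went in both directions. Of 27 tested accessory subunits, 10 were higher and 6 lower in Ducts and 12 and 4 in yDucts. Of 6 tested core subunits, which carry the redox centres, 1 was higher and 3 were lower in Ducts and 2 and 3 in yDucts. Of 8 assembly factors, which build the complex without staying in it, 7 were higher in Ducts and 6 in yDucts, and 0 were lower in either. After quantile normalization 3 were higher and 1 lower in Ducts and 4 and 3 in yDucts, and after cyclic loess 2 and 2, and 4 and 3. After cyclic loess the 33 subunits other than assembly factors gave 4 higher and 25 lower in Ducts. The shares of all genes tested were 42.7% higher and 33.1% lower in Ducts, and 43.6% and 32.6% in yDucts, on deposited values. After quantile normalization they were 28.4% and 36.1%, and 29.2% and 35.9%, and after cyclic loess 25.8% and 36.6%, and 27.1% and 36.0%.

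Ndufs1, the core subunit with the most iron-sulphur clusters, read 6.58, 7.83, 7.99 and 6.90 in Acini, 9.26, 9.34, 9.11 and 9.13 in Ducts, and 9.61, 9.32, 9.37 and 9.63 in yDucts. It rose by 1.88 ± 0.27 (adjusted p = 3.55e-05) and 2.16 ± 0.27 (adjusted p = 1.09e-05), and by 0.77 and 1.04 after cyclic loess. Ndufab1, the mitochondrial acyl carrier protein, was 1.81 ± 0.19 higher in Ducts (9.02 ± 0.43 to 10.83 ± 0.11, adjusted p = 2.51e-06) and 1.92 ± 0.19 higher in yDucts (10.93 ± 0.10, adjusted p = 1.5e-06), and 0.73 and 0.65 higher (adjusted p = 0.000198 and 0.000466) without probe sets that can match several transcripts. The assembly factor Ndufaf2 read 4.59, 5.13, 4.88 and 4.79 in Acini, 6.78, 6.66, 6.82 and 7.24 in Ducts, and 6.97, 6.99, 6.70 and 6.77 in yDucts. Its groups lay more than 1 log2 unit apart, with a rise of 2.03 ± 0.17 (adjusted p = 2.73e-07) and 2.01 ± 0.17 (adjusted p = 2.95e-07).

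Core genes on the other side were Ndufs7, Ndufs8 and Ndufv1, of which Ndufs7, the subunit next to the quinone site, kept its call under all scalings. It read 10.97, 10.54, 10.38 and 10.72 in Acini, 10.10, 10.12, 10.02 and 10.03 in Ducts, and 10.10, 9.85, 10.03 and 9.97 in yDucts, a fall of 0.58 ± 0.14 (adjusted p = 0.00253) and 0.66 ± 0.14 (adjusted p = 0.00101). The other Ndufs7 probe set had means of 9.77, 9.56 and 9.74 in Acini, Ducts and yDucts. It differed by only -0.21 in Ducts and -0.03 in yDucts. Ndufv3, a small accessory protein of the NADH-binding module, fell by 1.03 ± 0.16 in Ducts (11.42 ± 0.19 to 10.39 ± 0.20, adjusted p = 5.92e-05) and by 1.09 ± 0.16 in yDucts (10.33 ± 0.18, adjusted p = 3.58e-05). Ndufb7, an accessory subunit of the membrane arm, fell by 0.79 ± 0.15 (11.07 ± 0.26 to 10.28 ± 0.11, adjusted p = 0.00032) and by 0.80 ± 0.15 (10.27 ± 0.06, adjusted p = 0.000279). Ndufb8 was lower too on its brightest probe set (-0.70 ± 0.16 and -0.45 ± 0.16, adjusted p = 0.00153 and 0.0211) but 0.29 and 0.40 higher on the probe set with the largest interquartile range, and its yDucts call was lost without Acini D (-0.38, adjusted p = 0.0558) or yDucts B (-0.42, adjusted p = 0.0562).

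In Ducts 42.7% of all genes tested were called higher and 33.1% lower, and in yDucts 43.6% and 32.6%. In complex III 4 of 9 genes were higher and 0 lower in Ducts, and 5 were higher and 1 lower in yDucts. The lower one was Uqcrq (-0.58 ± 0.20, adjusted p = 0.0181), a small subunit named here although it fell outside the fixed rule for named genes. Uqcrfs1, the Rieske iron-sulphur protein, read 8.88, 9.47, 9.55 and 9.47 in Acini, 10.60, 10.64, 10.22 and 10.27 in Ducts, and 10.64, 10.54, 10.68 and 10.68 in yDucts. It was 1.09 ± 0.17 higher in Ducts (adjusted p = 7.79e-05) and 1.29 ± 0.17 in yDucts (adjusted p = 1.77e-05). Uqcrc2, a core protein, was higher by 0.86 ± 0.16 and 1.0 ± 0.16 (adjusted p = 0.000289 and 8e-05), and cytochrome c1 (Cyc1) by 0.63 ± 0.12 and 0.48 ± 0.12 (adjusted p = 0.000422 and 0.00295). After cyclic loess Uqcrc2 read -0.24 and -0.09 and Cyc1 -0.44 and -0.59, and of the 9 complex III genes 0 were called higher in either comparison, 7 lower in Ducts and 6 lower in yDucts. The shares of all genes were then 25.8% and 27.1% higher and 36.6% and 36.0% lower.

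Cycs, the somatic cytochrome c, read 9.20, 10.02, 9.77 and 10.09 in Acini, 10.46, 10.69, 10.71 and 10.93 in Ducts, and 10.29, 10.32, 10.46 and 10.41 in yDucts. It was 0.93 ± 0.19 higher in Ducts (adjusted p = 0.000669) and 0.60 ± 0.19 in yDucts (adjusted p = 0.0114), but read -0.16 and -0.48 after cyclic loess. Of its other 3 probe sets, one rose by 2.25 and 2.27, one by 1.03 and 0.96, and the dimmest moved the opposite way. Such disagreement was not rare: of the called genes that had another probe set above the 30th percentile on at least 4 arrays, 8 of 35 in Ducts and 14 of 37 in yDucts had one of opposite sign.

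The second question was how the yDucts compared with native Ducts. Of the 90 genes, 0 were called higher and 0 lower by limma, against 2.15% and 0.987% of all genes tested. At an unadjusted p under 0.05, 6 genes differed (5 higher and 1 lower in yDucts), against 2064 of the 14990. The smallest adjusted p, 0.122, belonged to Ndufa1, which read 0.43 ± 0.13 higher in yDucts. The median difference was 0.14, against 0.00 for all genes, and 65 of the 90 differences lay above 0. The 95% interval of the difference lay within 1 log2 unit of 0 for 84 of the 90 genes. The other 6 were Cox6b2 (-0.64 to 3.66), Cox7a1 (-0.24 to 1.02), Ndufa4 (0.14 to 1.15), Ndufaf4 (-1.07 to -0.12), Ndufs5 (-0.18 to 1.76) and Uqcrh (0.01 to 1.19).

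**Figure D5:**
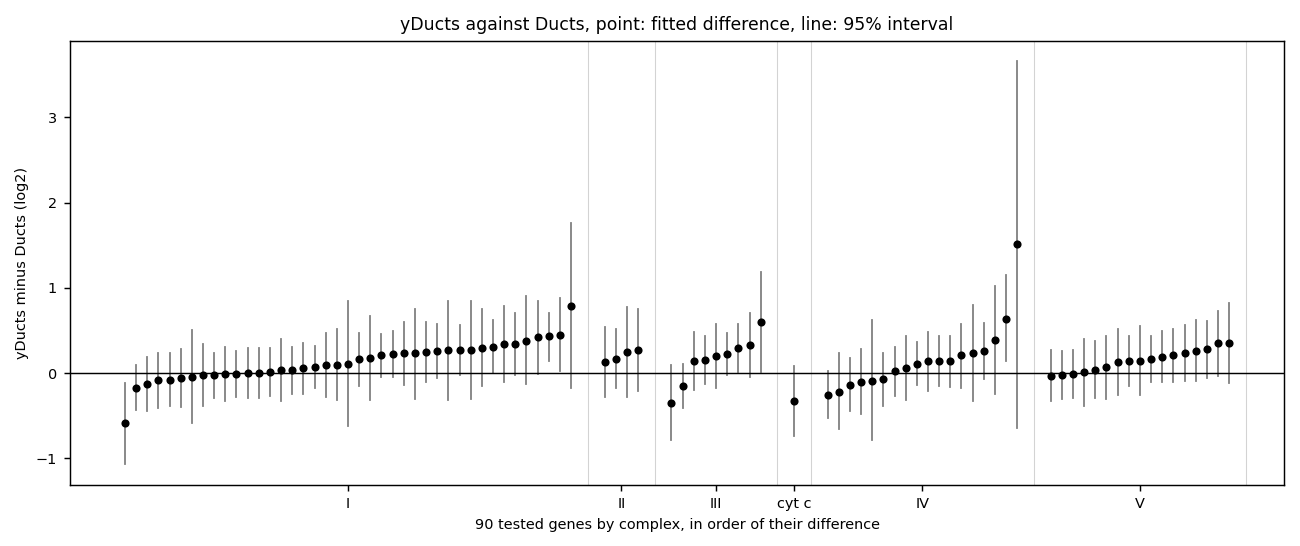
Fitted difference between yDucts and Ducts (log2, points) with its 95% interval (lines) for the 90 tested genes, grouped by complex and ordered by size. Most intervals include 0, and the widest, -0.64 to 3.66, is that of Cox6b2 in complex IV.

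The Ducts arrays themselves were uneven. Over the 90 genes, each array was set against the mean of the other arrays of its group. The median deviation was 0.04 on Ducts A, 0.18 on Ducts B, -0.08 on Ducts C and -0.14 on Ducts D, where 19 of 90 genes lay above that mean. Over all tested genes the corresponding medians were 0.00, -0.02, 0.02 and -0.01. The accessory complex I gene Ndufs5 showed the split most plainly, with 9.16, 7.97, 6.69 and 6.55 on Ducts A to D against 8.33, 8.23, 8.53 and 8.43 on yDucts A to D. Uqcrh, the hinge subunit of complex III, read 11.43, 12.09, 10.78 and 10.68 in Ducts and 12.06, 11.81, 11.84 and 11.68 in yDucts. Both genes are named because of this split, after their values were seen. Ducts A and B both lay above Ducts C and D for 47 of the 90 genes and below them for 11, against 29.0% and 30.9% of all genes tested. Genes of the hypoxia response moved with the same split, since of 9 such genes 6 were higher and 2 lower on Ducts A and B. Car9, a carbonic anhydrase induced by hypoxia, read 10.47, 10.59, 3.5 and 3.35 on Ducts A to D, and Egln3, a prolyl hydroxylase that senses oxygen, 11.06, 10.41, 8.65 and 7.70. Vegfa, the angiogenic growth factor, ran the other way with 8.74, 8.53, 10.01 and 10.48. Their part in the spread of the respiratory chain genes was not tested.

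Without Ducts A and B, 8 of 89 genes were higher and 1 lower in yDucts (median 0.23), near the 8.67% of all genes called higher there and below the 5.96% called lower. The genes called included Ndufs5 (1.76), Uqcrh (1.12), Sdhb (0.72) and Cox6b2 (3.72). Without Ducts C and D 0 were called (median 0.02). When limma weighted all 12 arrays by their agreement, from 0.236 for Acini A to 5.39 for yDucts C, with 0.288 for Ducts B and 4.36 for Ducts C, 45 genes were higher and 5 lower in yDucts, and of all genes 21.0% were then called higher and 20.2% lower. Without Acini A, Ndufa1 was called (0.43, adjusted p = 0.0457). The spread was smallest in yDucts, with a median SD over the tested genes of 0.09, against 0.17 in Ducts and 0.21 in Acini. On Acini A the median deviation was -0.24, and 24 of 90 genes lay above the mean of the other Acini arrays. One yDucts array also stood apart: on yDucts B the median deviation was -0.08, and 20 of 90 genes lay above the mean of the other yDucts arrays.

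Other nuclear genes that serve mitochondria were counted from lists set beside the respiratory chain. On deposited values most were higher in the organoids, but fewer were so after quantile normalization and cyclic loess. The counts of every list stand beside 42.7% of all genes called higher and 33.1% lower in Ducts, and 43.6% and 32.6% in yDucts. After cyclic loess these shares were 25.8% and 36.6% in Ducts, and 27.1% and 36.0% in yDucts. Of 18 import, chaperone and inner membrane genes, 16 were higher and 0 lower in each organoid group, and after cyclic loess 7 were higher and 4 lower in Ducts and 6 and 5 in yDucts. Hspd1, the matrix chaperonin, went from 9.45 ± 0.24 to 11.73 ± 0.33 in Ducts and 11.70 ± 0.11 in yDucts (2.28 ± 0.18 and 2.26 ± 0.18, adjusted p = 2.18e-07 and 2.42e-07). Opa1, which fuses the inner membrane, rose by 2.17 ± 0.16 and 2.23 ± 0.16 (adjusted p = 9.39e-08 and 7.14e-08). Of 16 citric acid cycle and pyruvate dehydrogenase genes, 13 and 15 were higher and 0 lower, and after cyclic loess 2 and 3 were higher and 7 lower in each. Idh3a, a subunit of isocitrate dehydrogenase, rose by 2.44 ± 0.21 and 2.39 ± 0.21 (adjusted p = 3.74e-07 and 4.6e-07), and Dld, the lipoamide dehydrogenase shared by several dehydrogenase complexes, by 2.23 ± 0.18 in both (1.14 after cyclic loess).

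Of 40 assembly factors beyond the Nduf family, 27 were higher and 3 lower in Ducts, and 30 and 4 in yDucts. After cyclic loess these counts were 9 and 14, and 10 and 12. Tmem70, which helps to assemble the ATP synthase, rose by 2.32 ± 0.31 and 2.6 ± 0.31 (adjusted p = 2.05e-05 and 7.38e-06), and Coa6, a copper-handling factor of complex IV, by 2.12 ± 0.14 and 1.98 ± 0.14 (1.07 and 0.93 after cyclic loess). Of 8 carriers and porins, 6 and 7 were higher and 0 lower, and after cyclic loess 2 were higher and 3 lower in each comparison. Slc25a4, an ADP/ATP carrier, rose by 2.90 ± 0.15 and 3.24 ± 0.15 (adjusted p = 4.95e-09 and 1.91e-09).

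Of 16 regulators of mitochondrial biogenesis and mtDNA maintenance, 12 were higher and 1 lower in Ducts and 11 and 1 in yDucts, and after cyclic loess 4 and 4 in each. Tfam, which packages mitochondrial DNA and starts its transcription, read 5.78 ± 0.31 in Acini, 8.53 ± 0.15 in Ducts and 8.63 ± 0.08 in yDucts (2.75 ± 0.16 and 2.86 ± 0.16, adjusted p = 1.66e-08 and 1.21e-08). Gabpa rose by 2.21 ± 0.20 and 2.44 ± 0.20 (adjusted p = 6.34e-07 and 2.66e-07), and its partner Gabpb1 by 2.01 ± 0.12 and 1.58 ± 0.12 (adjusted p = 2.42e-08 and 1.91e-07). The coactivator gene Ppargc1b was the lower one in both (-1.06 and -1.10, adjusted p = 0.000183 and 0.000139). Of 9 genes of the hypoxia response, 5 were higher in Ducts, 6 in yDucts and 0 lower, and after cyclic loess 4 were higher and 1 lower in Ducts and 3 and 2 in yDucts. Egln3 was the largest of these (4.53 ± 0.65 to 9.46 ± 1.55 and 10.51 ± 0.41), while the hypoxia-linked isoform genes Cox4i2 and Ndufa4l2 were lower. The mitochondrially encoded ND5 read 12.23, 12.08 and 11.82 in Acini, Ducts and yDucts and was not called on deposited values, while it was called lower after quantile normalization (-0.52 in Ducts and -0.82 in yDucts) and after cyclic loess (-1.12 and -1.37).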

How the data were processed

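The authors extracted total RNA with Trizol, made biotin-labelled cRNA and hybridised 1 Affymetrix mouse array per sample. They deposited log2 expression values, rounded to 2 decimals, for 45101 probe sets. The submitters' processing notes name RMA, but the sources used here do not say in which version, with which chip definition or whether on all arrays together. Since RMA equalises the probe intensities of the arrays it is run on, values are relative to the other genes on an array. The deposited distributions nevertheless differed between Acini and organoids. Values carry no detection calls, and the number of arrays limits the precision.

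Genes were named from the platform annotation (34958 probe sets with 1 symbol, 932 with several, 9211 with none), and 64 control probe sets were left out. A gene was represented by its brightest single-symbol probe set by the mean of 12 arrays, and tested if this lay above the 30th percentile of all probe sets on at least 4 arrays. Differences were tested with limma 3.58.1 (R 4.3.3), with 1 mean per group, all 12 arrays in the fit and 3 contrasts (9 residual and 3.72 prior degrees of freedom), two-sided, with Benjamini-Hochberg adjustment over 14990 genes. The fit was tested on simulated data. For a group below the 30th percentile, values were raised to the percentile and the fold is given as a lower limit.

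Of the probe sets used, 46 end in _at, 28 in _a_at, 13 in _s_at and 5 in _x_at, and the last 2 kinds can cross-hybridise with related genes. Genes named were, in each comparison and complex, up to 3 called genes with the largest increases and decreases without overlap, the Sdh genes, Cyc1, Cycs and the isoform sets. Of each other list, up to 3 called genes with the largest differences were eligible. Genes named outside this rule were chosen after their values were seen (Atp5c1, Atp5d, Atp5e, Car9, Vegfa, Cox5a, Cox5b, Ndufa1, Ndufaf4, Ndufs5, Ndufs8, Ndufv1, Uqcrh, Uqcrq, Ppargc1b, ND5 and those listed only for keeping a call). The members, lists and motifs were chosen with earlier results of these data known. Marker sums are linear values of the listed genes measured. Alternatives changed the scaling, the filter, the choice of probe set, the array weights, the variance trend, a replicate block and the arrays included.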

Additional observations from a re-analysis of the deposited data

Results flagged for a closer look

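For 39 named genes in 3 groups, each highest or lowest array was set against the other 3 arrays of its group by Dixon's test. It singled out 6 of 117 groups, and chance alone gives about 1 in 20. On Acini A, Ndufa4 read 9.44 against 10.33 to 10.46 on the others, Uqcrfs1 read 8.88 against 9.47 to 9.55, and Ndufv3 read 11.70 against 11.31 to 11.35. On Ducts B, Atp5g3 read 12.28 against 11.98 to 12.03. On yDucts C, Cox8b read 3.46 against 3.87 to 3.91, and on yDucts D, Sdhd read 10.21 against 10.07 to 10.09. Of these readings 3 came from Acini A, on which the median deviation from the other Acini arrays over the 90 tested genes was -0.24.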

How the results depend on the processing

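The scaling of the arrays decided the overall direction against Acini. For Ducts the counts higher and lower, 43 and 18, became 13 and 41 with quantile normalization and 11 and 56 with cyclic loess, and the median, 0.37, became -0.32, -0.60 and, with centring, 0.58. For yDucts the counts 47 and 15 became 19 and 37 with quantile normalization and 15 and 51 with cyclic loess, with 9 lower after centring, and the median of 0.50 became -0.15, -0.48 and, after centring, 0.72. The cause was not tested. Leaving out single arrays gave 37 to 43 higher and 17 to 18 lower in Ducts (median 0.27 to 0.40), 46 to 50 and 12 to 17 in yDucts (0.41 to 0.54), and 0 to 1 each way for yDucts against Ducts (0.11 to 0.20), where the single calls appeared without Ducts A (Ndufs5), Ducts B (Uqcrh higher, Ndufaf4 lower) or Acini A (Ndufa1). Array weights gave 45 higher and 5 lower in yDucts than in Ducts, and leaving out Ducts A and B gave 8 and 1.

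Among named genes, cyclic loess turned the sign of these Ducts differences: Cox4i1 (-0.30), Cox6a1 (-0.36), Cox6b1 (-0.89), Cox6c (-0.16), Cox7a2l (-0.17), Cox8a (-0.17), Cyc1 (-0.44), Cycs (-0.16), Ndufa4 (-0.39), Uqcr10 (-0.62) and Uqcrc2 (-0.24). In yDucts it turned Cox4i1 (-0.27), Cox6a1 (-0.21), Cox6b1 (-0.67), Cox7a2 (-0.77), Cox7a2l (-0.42), Cox8a (-0.03), Cyc1 (-0.59), Cycs (-0.48), Uqcr10 (-0.47) and Uqcrc2 (-0.09). Quantile normalization turned Cox6b1 (-0.32), Cyc1 (-0.10), Ndufa4 (-0.05) and Uqcr10 (-0.33) in Ducts, and Cox6b1 (-0.09), Cox7a2 (-0.16), Cox7a2l (-0.09), Cyc1 (-0.26), Cycs (-0.18) and Uqcr10 (-0.19) in yDucts. Centring turned Atp5g3 (0.01) and Cox7a2 (0.17) in Ducts and Atp5g3 (0.18) in yDucts. Array weights turned Cox6b1 (-0.10), Cox6b2 (-0.77) and Cox7a1 (-0.14) in Ducts. The probe set with the largest interquartile range turned Cox7a2 (0.11) and Ndufb8 (0.29) in Ducts and Ndufb8 (0.40) in yDucts, and the mean of all probe sets turned Cox7a2 (0.04) in Ducts. Without Ducts A and B the Ducts differences of Cox6b1 (-0.17) and Cox6b2 (-0.98) turned, without Ducts B alone Cox6b1 (-0.05, with a range of -0.05 to 0.21 over single arrays left out), and without Ducts C and D, Ducts C, Ducts D or Acini B Cox7a2 (0.12, 0.02, 0.00 and 0.01, with a range of -0.16 to 0.02 over single arrays). Without Acini C the yDucts difference of Atp5g3 turned (0.00, with a range of -0.07 to 0.00). Of the other comparisons of a named gene under an alternative, 1807 kept direction and side of the threshold, 45 lost and 33 gained a call.

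With the replicate letter as a block, 40 genes were higher and 17 lower in Ducts, 47 and 14 in yDucts, and 0 and 0 between the organoids. Deviations of same-letter arrays from their group means correlated at -0.35 to 0.134 (2 of 12 above 0.1), so no pairing by letter was seen. The labels do not say whether a letter marks a shared animal, day or batch, and these correlations cannot exclude it.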

Other observations

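Probe sets that several symbols share stood outside the comparisons. Of the 2 shared by Ndufb4 and its copies Ndufb4b and Ndufb4c, one read 9.22, 9.80 and 9.91 in Acini, Ducts and yDucts and the other 8.87, 9.63 and 9.78, while the single-symbol probe set of Ndufb4 read 3.66, 3.0 and 3.01. The Ndufs6 probe set shared with Ndufs6b read 10.14, 9.83 and 9.74, and the brighter of those shared by Ndufa11 and Ndufa11b read 9.89, 9.73 and 9.68. Cox14, a complex IV assembly factor whose probe set is shared with Gm29733, read 8.07, 9.95 and 10.27.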
